A study of Mus musculus with 80 samples.

Results

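Apolipoproteins are the protein components of the particles that carry fat and cholesterol in blood, and the liver is a main source of most of them. The genes followed here are the 10 named Apoa1, Apoa2, Apoa4, Apoa5, Apob, Apoc1, Apoc2, Apoc3, Apoe and Apom. They were listed by name, with earlier results of these data known. Of these 10, 9 have a row of their own among the 20105 genes of the count table. Apoc2 has none, and its locus is covered by the readthrough gene Apoc4-apoc2, which is given separately and is not counted among the 9.

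The samples are liver nuclei of female HEP-INTACT and MAC-INTACT mice, and their RNA was sequenced. INTACT mice carry a tag on the nuclear envelope of 1 cell type, here hepatocytes or macrophages, so that these nuclei can be captured on beads without dissociating the liver. No source used here states the driver of the tag, or the strain and age of the mice. The fasted groups had food withdrawn from zeitgeber time (ZT) 12, the start of the dark phase, and were taken after 3, 8, 16 or 24 h, at ZT15, ZT20, ZT4 and ZT12. The fed groups ate ad libitum and were taken at the same 4 times. Each of the 16 groups of tagged nuclei has 4 libraries, 32 per cell type. A further 16 libraries are unpurified nuclei of whole liver, pooled from 4 mice each, and every line, time and feeding state has 1 such pool. Total nuclear RNA was sequenced, so the counts include unspliced transcripts, and a level here is RNA in the nucleus and not protein or secretion.

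Library totals ranged from 12597786 to 44694933 counts. Levels are given as CPM, read counts of a gene relative to the scaled total of its library, and called means an adjusted p under 0.05 in edgeR's quasi-likelihood test. Differences are log2 fold changes with their standard error (SE), 4 fasted against 4 fed libraries unless stated. The number of mice behind a tagged library is not in the labels, and p-values here reflect only how much libraries of a group vary, which may be technical. The purification can be read from marker genes. In macrophage nuclei all 28 Kupffer cell and macrophage markers were higher than in whole liver (median log2 difference 3.90) and all 22 hepatocyte markers were lower (median -1.24). In hepatocyte nuclei 25 of 28 Kupffer cell and macrophage markers were lower than in whole liver (median -2.29), and 3 of 22 hepatocyte markers were higher (median 0.24).

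Lipoproteins differ in the apolipoproteins they carry. Apob is the large, non-exchangeable backbone of very low density lipoprotein (VLDL), which is assembled in the hepatocyte by transfer of lipid onto the nascent chain. Apoa1 and Apoa2 are the main structural proteins of high density lipoprotein (HDL), and Apom is a minor HDL protein that carries sphingosine-1-phosphate. The exchangeable proteins tune what happens to triglyceride-rich particles: Apoc2 is the cofactor of lipoprotein lipase, Apoc3 and Apoc1 slow lipolysis and uptake, Apoa5 favours lipolysis, and Apoe is the ligand for uptake by hepatic receptors. Apoa4 is a lipid-binding protein of chylomicrons and HDL.

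The genes lie at 5 places in the mm10 genome. Apoa1 (chr9:46228630-46230469), Apoc3 (chr9:46233050-46235636), Apoa4 (chr9:46240844-46243458) and Apoa5 (chr9:46268608-46271919) form a cluster in which Apoc3 alone is on the minus strand. Apoc1 (chr7:19689480-19692659) and Apoe (chr7:19696244-19699188) are 3584 bp apart on the minus strand of a second cluster that also holds Apoc4-apoc2 (chr7:19671579-19681460). Apoa2 is at chr1:171221564-171226379, Apob at chr12:7977677-8016839 and Apom at chr17:35128997-35131752. The listed Apoa2 gene overlaps one end of Tomm40l, on the opposite strand. No source used here says whether counting used the strand, so reads of this stretch cannot be told apart.

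Apoa4, called higher at 3 of 4 times in hepatocyte nuclei, and Apoa1 and Apoa5, each over 3-fold higher at 3 h, lie in the chromosome 9 cluster, and their promoters are shown for that reason. Each sequence is the part of RefSeq's promoter window (GRCm38.p6, plus strand, 5′ to 3′) that lies upstream of both the RefSeq start and the GENCODE vM21 transcripts, and capitals mark matches to the motifs searched.
Apoa1, chr9:46228380-46228579: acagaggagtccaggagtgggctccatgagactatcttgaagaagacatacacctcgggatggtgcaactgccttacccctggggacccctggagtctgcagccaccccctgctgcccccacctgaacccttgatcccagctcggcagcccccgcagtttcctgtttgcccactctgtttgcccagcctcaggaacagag
Apoa4, chr9:46240594-46240695: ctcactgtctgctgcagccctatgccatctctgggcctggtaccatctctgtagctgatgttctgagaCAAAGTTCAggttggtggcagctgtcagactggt
Apoa5, chr9:46268358-46268607: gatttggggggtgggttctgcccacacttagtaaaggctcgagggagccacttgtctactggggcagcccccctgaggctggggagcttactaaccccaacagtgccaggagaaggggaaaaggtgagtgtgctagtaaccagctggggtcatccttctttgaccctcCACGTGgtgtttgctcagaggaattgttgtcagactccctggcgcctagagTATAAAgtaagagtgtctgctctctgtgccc
Each motif was searched on both strands. For the liver factor HNF4 the core searched was CAAAGTNCA. For basic helix-loop-helix factors it was the E-box CACGTG. For nuclear receptors more widely it was the half-site AGGTCA. Forkhead factors of the FOXO group were covered by the core GTAAACA. The cAMP response was covered by the element core TGACGT. Last, the TATA box was searched as TATAAA. The Apoa4 stretch holds CAAAGTTCA, a match to the HNF4 core, which occurs in 1.41% of the 32851 promoter windows of 300 bases in the RefSeq table. The Apoa5 stretch holds an E-box, present in 7.15% of windows, and a TATA box, present in 13.6%. The stretches are shorter than these windows, with 102 bases for Apoa4 and 250 for Apoa5. The shares are therefore not those for stretches of like length. The Apoa1 stretch holds none of the 6 motifs. Windows were found for 8 of the 10 genes. These matches describe letters in a window and no factor's binding was measured.

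Apob made up most of the apolipoprotein signal. Across the 32 libraries of hepatocyte nuclei it averaged 2385 ± 311 CPM (SD), which is 69.9 ± 5.41% of the summed CPM of the 9 genes. Apoe followed at 288 ± 91.9 CPM, Apoa5 at 272 ± 115, Apoa1 at 143 ± 63.9, Apoc1 at 121 ± 36.0, Apoa2 at 117 ± 42.2 and Apoc3 at 79.8 ± 25.0 CPM. Apoa4 averaged 10.8 ± 11.4 CPM and Apom 6.20 ± 2.09 CPM, the lowest of the 9. Per kb of gene body, which sets the long Apob gene beside the short ones, the order was different: Apoe had 97.8 ± 31.2 CPM per kb, Apoa5 82.0 ± 34.8, Apoa1 78.0 ± 34.7 and Apob 60.9 ± 7.93, and these 4 overlap within their SD. Apoc1 (38.0 ± 11.3 CPM per kb), Apoc3 (30.9 ± 9.65) and Apoa2 (24.3 ± 8.77) came next, and their SDs overlap as well. These values use the listed gene length, and RefSeq also gives Apoa2 a start at 171225054, inside the listed gene. The rank of Apoa2 per kb therefore depends on the listed start. Apoa4 (4.14 ± 4.37 CPM per kb) and Apom (2.25 ± 0.757) were lowest. Together the 9 genes took 0.264% to 0.427% of all counts in a library of hepatocyte nuclei (median 0.309%).

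In hepatocyte nuclei fasting raised Apoa1, Apoa5 and Apoa2 at 3 h and Apoa4 at 8, 16 and 24 h, with Apoa5 still higher at 8 h. It lowered Apom at 8 h, Apoc3 at 16 h and Apoa2, Apoc1 and Apoe at 24 h. At 3 h, 3 of 9 genes rose and none fell, against 39.9% of all genes called (19.5% higher, 20.4% lower). At 8 h, 2 rose and 1 fell, against 38.7% (18.0% higher, 20.7% lower). At 16 h, 1 rose and 1 fell, against 18.1% (9.55% higher, 8.55% lower). At 24 h, 1 rose and 3 fell, against 24.0% (11.6% higher, 12.4% lower). Fasted and fed libraries did not overlap for 5, 4, 3 and 4 of the 9 genes at the 4 times, against 41.1%, 36.4%, 15.7% and 25.1% of all genes. The called shares of the 9 are near the background at 3, 8 and 16 h, and nothing is read from these counts. The median log2 fold change of the 9 was 0.32, -0.03, 0.01 and -0.05, and over all genes tested it was between -0.03 and 0.01. Hepatocyte markers moved as well: at 3 h 7 of 22 were called higher and 2 lower (median 0.54), and their summed level ranged from 23800 to 34520 CPM in fasted and from 17700 to 21490 CPM in fed libraries. At 8 h 4 of 22 were higher and 5 lower (median -0.19). Their part in the results on hepatocyte nuclei was not tested.

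**Figure D1:**
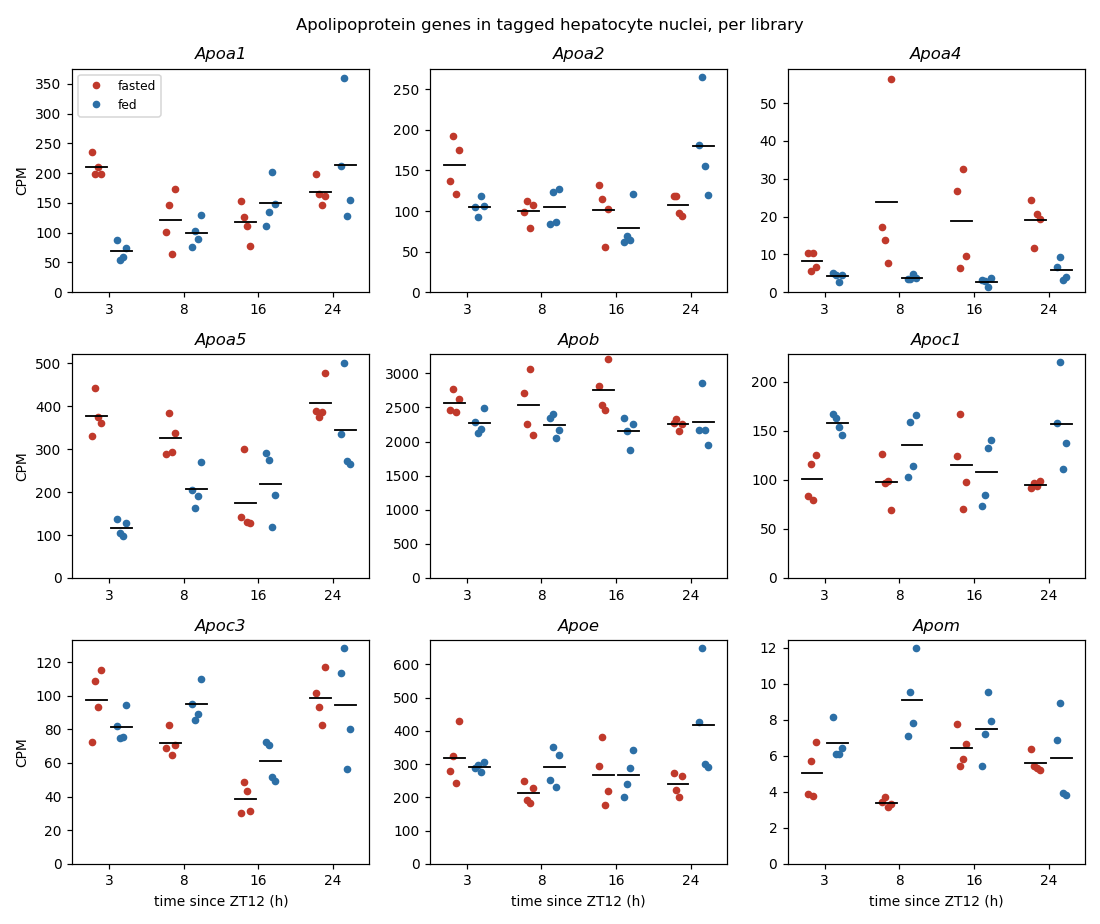
CPM of the 9 apolipoprotein genes in tagged hepatocyte nuclei, 1 point per library, against hours since ZT12, with fasted libraries (red) left of fed libraries (blue) and a bar at each group's mean of 4. Apoa1 and Apoa5 separate at 3 h, Apoa4 from 3 h on, and Apom at 8 h, where the fasted libraries sit between 3.13 and 3.70 CPM and all fed libraries above 7 CPM.

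Apoa4 was called higher at 8, 16 and 24 h. At 3 h it had 10.4, 5.63, 10.4 and 6.61 CPM in fasted libraries, against 5.14, 4.53, 2.66 and 4.49 CPM in fed libraries. The groups did not overlap, but the log2 fold change of 1.03 ± 0.50 was not called (edgeR adjusted p = 0.102). It was called with the 8 libraries of that time only (1.04) and with summed Kupffer cell and macrophage markers as a covariate (1.23). At 8 h fasted libraries had 17.3, 13.7, 7.73 and 56.4 CPM and fed libraries 3.52, 3.42, 4.71 and 3.66 CPM, and the gene rose by 2.68 ± 0.51 (edgeR adjusted p = 0.000171). Of these, 1 fasted library, replicate 4, lay far above the others at 8 h, and without it the log2 fold change was 1.84. The separation held at the later times. At 16 h Apoa4 had 26.7, 6.33, 32.5 and 9.63 CPM in fasted libraries, against 3.27, 2.87, 1.39 and 3.74 CPM in fed libraries, a rise of 2.74 ± 0.52 (edgeR adjusted p = 0.00049). At 24 h the values were 24.4, 11.6, 20.6 and 19.4 CPM in fasted and 6.74, 9.35, 3.15 and 4.10 CPM in fed libraries, a rise of 1.75 ± 0.50 (edgeR adjusted p = 0.0115). Every fasted library stood above every fed library at all 4 times, and the fasted libraries spread more widely than the fed ones at each. Whether the Apoa4 effect differs between the times was not called (F-test, edgeR adjusted p = 0.139).

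Apoa1 and Apoa5 rose early. Apoa1 had 236, 198, 211 and 199 CPM in libraries fasted for 3 h, against 86.8, 54.5, 59.4 and 73.9 CPM in fed libraries, a 3.20-fold rise (log2 1.68 ± 0.28, edgeR adjusted p = 2.76e-05). Apoa5 had 329.9, 442, 375 and 361 CPM in fasted libraries and 138, 104, 97.1 and 129 CPM in fed libraries, a 3.36-fold rise (log2 1.75 ± 0.26, edgeR adjusted p = 5.16e-06). In both genes the lowest fasted library was above the highest fed one by more than the spread within either group. By 8 h the Apoa1 groups overlapped, and its log2 fold changes at 8, 16 and 24 h were 0.35 ± 0.27, -0.34 ± 0.27 and -0.34 ± 0.27, none of them called. With summed Kupffer cell and macrophage markers as a covariate, Apoa1 at 8 h (0.70) was called. Of the 26 such markers measured, 7 were themselves called higher and 1 lower at 8 h (median 0.36). This covariate is therefore not free of fasting. Apoa5 was still higher at 8 h, with 289, 384, 294 and 336 CPM in fasted and 205, 163, 192 and 270.2 CPM in fed libraries (log2 0.71 ± 0.25, edgeR adjusted p = 0.0257). That call was lost in 3 of 8 fits that each left out 1 library of that time (log2 0.62 to 0.86). At 16 and 24 h Apoa5 differed by -0.31 ± 0.25 and 0.26 ± 0.25, not called. At 16 h fasted replicate 2 stood apart at 301 CPM, and without it the log2 fold change was -0.69, a called fall (edgeR adjusted p = 0.0341). The fasting effect differed between times for both genes (F-test, edgeR adjusted p = 0.000587 for Apoa1 and 0.000538 for Apoa5).

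Both genes also changed with the time of day in fed mice. Over 3, 8, 16 and 24 h the mean of the fed libraries was 68.7, 99.0, 149 and 214 CPM for Apoa1 and 117, 208, 219.5 and 343 CPM for Apoa5. The fed means were lowest at ZT15 and highest at ZT12, and the 4 times differed (F-test, edgeR adjusted p = 0.000194 for Apoa1 and 0.000255 for Apoa5). In fasted libraries the means over the same times were 211, 121, 117 and 168 CPM for Apoa1 and 377, 326, 175 and 407 CPM for Apoa5. The early difference therefore sits at the time when the fed level was lowest. In all, fed libraries differed between times for Apoa1, Apoa2, Apoa5 and Apoc3, 4 of 9 genes against 30.1% of all genes. Fasted libraries differed between times for Apoa1, Apoa5, Apoc3 and Apom, 4 of 9 against 44.9%, and the fasting effect itself differed between times for Apoa1, Apoa2, Apoa5, Apoc3 and Apom, 5 of 9 against 32.8%.

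Apoa2, the second HDL protein, moved in opposite directions at the first and last times. It had 137, 193, 121 and 175 CPM in libraries fasted for 3 h, against 105, 92.8, 118 and 106 CPM in fed libraries, a rise of 0.63 ± 0.24 (edgeR adjusted p = 0.0365). At 24 h it fell, to 118, 118, 97.2 and 94.3 CPM in fasted libraries, against 182, 265, 155 and 119 CPM in fed libraries (log2 -0.74 ± 0.24, edgeR adjusted p = 0.0261). The groups did not overlap at either time, but the rise lost its call in 5 of 8 fits that each left out 1 library, and the fall in 3 of 8. Tomm40l, which overlaps the listed gene, differed by -0.87 at 3 h and -0.46 at 24 h on the log2 scale, not called. At 8 h Tomm40l was called lower, at -0.97 (edgeR adjusted p = 0.0277).

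Apoc3, the inhibitor of lipolysis, fell at 16 h. It had 30.3, 48.8, 43.4 and 31.4 CPM in fasted and 72.4, 70.9, 51.8 and 49.5 CPM in fed libraries (log2 -0.65 ± 0.20, edgeR adjusted p = 0.0228). The highest fasted library was just below the lowest fed one, and the call was lost in 4 of 8 fits that each left out 1 library of that time. At 8 h all fasted libraries were below all fed ones (68.9, 82.7, 64.9 and 70.9 CPM against 95.2, 85.4, 89.4 and 109.7 CPM), with a log2 fold change of -0.34 ± 0.20 that was not called. Apoc3 also had its lowest mean at 16 h in both feeding states, 38.5 ± 9.10 CPM in fasted and 61.1 ± 12.2 CPM in fed libraries (SD, n = 4 each). Apoc4-apoc2, the row that covers the lipase cofactor Apoc2, went the other way at 16 h. It had 14.4, 14.6, 10.9 and 14.1 CPM in fasted libraries, against 6.96, 7.11, 9.79 and 9.71 CPM in fed libraries, a rise of 0.70 ± 0.18 (edgeR adjusted p = 0.00813). It was not called at the other times. Reads of this readthrough row cannot be assigned to Apoc2 alone.

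Apom fell at 8 h. Fasted libraries had 3.45, 3.70, 3.13 and 3.30 CPM, against 7.11, 9.53, 7.79 and 11.97 CPM in fed libraries, a log2 fold change of -1.36 ± 0.24 (edgeR adjusted p = 5.46e-05). The highest fasted library was below the lowest fed one, and the fasted libraries lay closer together. At 3, 16 and 24 h its log2 fold changes were -0.36 ± 0.24, -0.21 ± 0.23 and -0.05 ± 0.24, not called, and the effect differed between times (F-test, edgeR adjusted p = 0.0115). Apom rests on few reads, 39 to 219 per library of hepatocyte nuclei.

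Apoe and Apoc1, which lie side by side on chromosome 7, were lower at 24 h. Apoe had 273, 220.4, 202 and 264 CPM in fasted and 428, 649, 299.5 and 291 CPM in fed libraries (log2 -0.78 ± 0.24, edgeR adjusted p = 0.0164). Apoc1 had 91.2, 97.1, 93.9 and 98.9 CPM in fasted and 158, 220.4, 112 and 137 CPM in fed libraries (log2 -0.70 ± 0.24, edgeR adjusted p = 0.0345). Fed replicate 2 of that time was the highest of the 4 fed libraries in both genes, and in the other 7 of the 9 as well. Without it the log2 fold changes were -0.49 for Apoe, -0.50 for Apoc1 and -0.50 for Apoa2, none called, and Apoa4 alone of the 9 genes was then called at 24 h, as it was without fasted replicate 3. Leaving out 1 library of that time at a time, the Apoe call was lost in 2 of 8 fits and the Apoc1 call in 6 of 8. Summed hepatocyte markers at 24 h ranged from 29130 to 37220 CPM in fasted and from 21620 to 32110 CPM in fed libraries. Apoc1 was also below all fed libraries at 3 h (83.5, 116, 79.8 and 126 CPM against 168, 163, 154 and 146 CPM), without a call (log2 -0.57 ± 0.24, edgeR adjusted p = 0.0597).

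Apob, the backbone of VLDL, was not called at any time in hepatocyte nuclei. Its log2 fold changes were 0.24 ± 0.13, 0.23 ± 0.13, 0.37 ± 0.14 and -0.01 ± 0.13 at 3, 8, 16 and 24 h, none called. At 16 h the groups did not overlap, with 2817, 2529, 2470 and 3212 CPM in fasted and 2349, 2157, 1879 and 2253 CPM in fed libraries, and the edgeR adjusted p was 0.0535. The authors' deposited table gives an adjusted p of 0.0396 for Apob at 16 h, and DESeq2 on the same counts gave 0.015. That table lists 7 of the 9 genes, without Apoc1 and Apoe, among its 4745 genes, and the one for macrophage nuclei lists none of them among 3762. Absence from these lists is not read as the lack of a fasting effect.

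Whole-liver pools of both lines were fitted together, 8 fasted against 8 fed pools, with time and line as terms. Apoa4, Apoa5 and Apob rose and Apoc1 fell, 4 of 9 genes against 27.0% of all genes. Apoa4 had 7.09, 22.7, 26.5 and 18.4 CPM in fasted pools of the HEP line at 3, 8, 16 and 24 h, against 6.36, 4.01, 11.8 and 5.79 CPM in fed pools, and 9.43, 15.5, 31.3 and 15.4 CPM in fasted pools of the MAC line, against 5.37, 4.32, 3.70 and 3.74 CPM in fed pools. The 3 h pools of the HEP line lay closest together. The fasted pool was the higher one in all 8 pairs of the same line and time, and the mean log2 fold change was 1.64 ± 0.25 (edgeR adjusted p = 0.000665). For Apoa5 it was 0.68 ± 0.18 (edgeR adjusted p = 0.0158), for Apob 0.21 ± 0.07 (0.0349) and for Apoc1 -0.28 ± 0.08 (0.0229). The 4 whole-liver pools of 1 feeding state and line were taken at different times and are not replicates of a time. In whole liver, fewer cells of a type and less RNA per cell cannot be told apart.

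**Figure D2:**
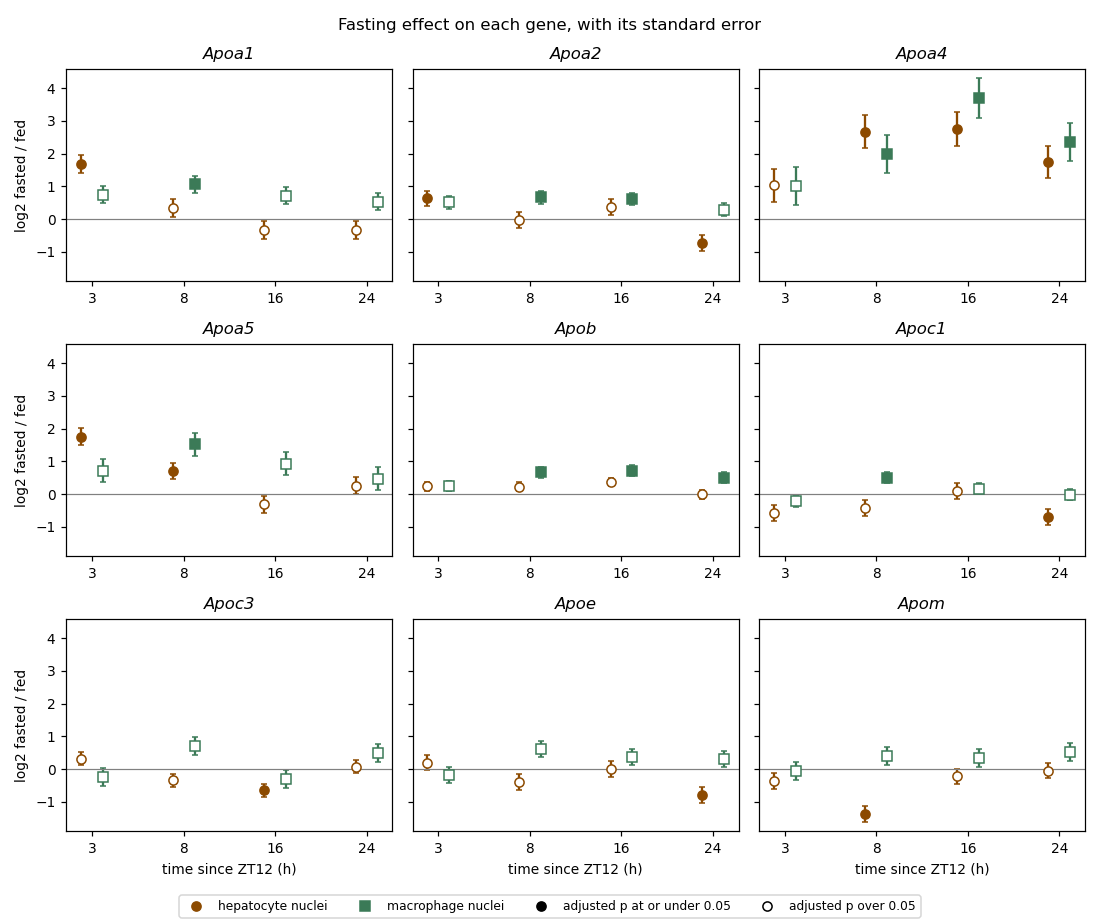
Log2 fold change of fasted over fed libraries for each gene at 3, 8, 16 and 24 h since ZT12, with its SE, in hepatocyte nuclei (brown circles) and macrophage nuclei (green squares), filled where the edgeR adjusted p was at or under 0.05. Apoa4 is above 0 throughout in both, while Apom in hepatocyte nuclei dips to -1.36 at 8 h.

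In macrophage nuclei the called apolipoprotein genes were all higher in fasted libraries. None of the 9 was called at 3 h by edgeR (12.4% of all genes called), with 3 genes at an unadjusted p under 0.05 and 2 called by DESeq2. At 3 h 7.70% of all genes were higher. At 8 h 6 of 9 rose, against 12.8% called and 7.44% higher. At 16 h 3 rose (13.7% called, 7.72% higher) and at 24 h 2 (11.7% called, 5.31% higher). Groups did not overlap for 2, 8, 3 and 2 of the 9 genes at the 4 times, against 15.4%, 21.6%, 17.7% and 19.8% of all genes. The median log2 fold change of the 9 was 0.25, 0.67, 0.62 and 0.50, and over all genes it was between -0.05 and 0.04. Hepatocyte markers moved alongside: 7, 7, 3 and 1 of the 22 were called higher at the 4 times and 0 lower, with medians of 0.62, 0.63, 0.31 and 0.31. Their summed level at 8 h ranged from 10680 to 12940 CPM in fasted and from 5579 to 8075 CPM in fed libraries, without overlap. RNA of hepatocytes and RNA of macrophages cannot be told apart in these libraries. The part of hepatocyte RNA in the rises of the apolipoprotein genes was not tested.

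**Figure D3:**
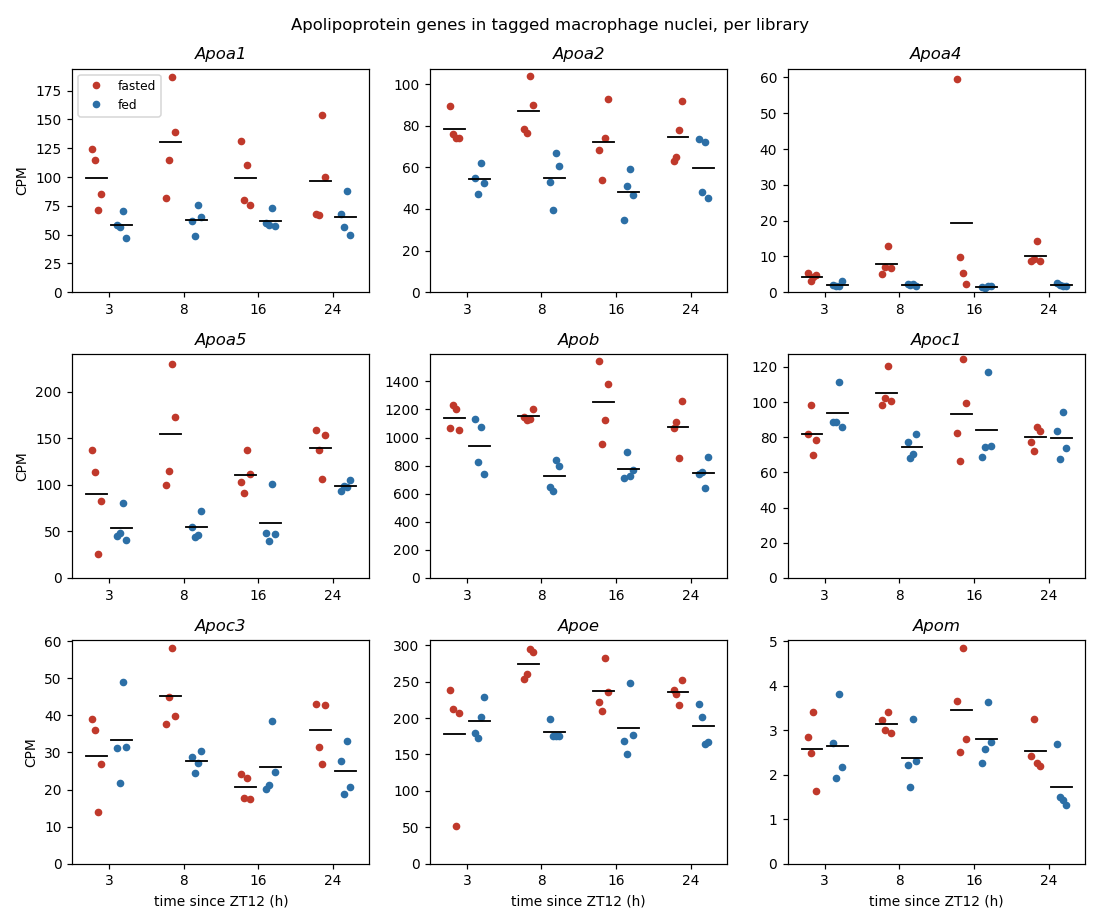
CPM of the 9 apolipoprotein genes in tagged macrophage nuclei, 1 point per library, against hours since ZT12, with fasted libraries (red) left of fed libraries (blue) and a bar at each group's mean of 4. At 8 h the groups separate for 8 of the 9 genes, and 1 fasted library at 16 h stands at 59.6 CPM of Apoa4.

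Apoa4 again rose most. At 8 h it had 5.09, 7.11, 12.9 and 6.67 CPM in fasted and 2.21, 1.87, 2.29 and 1.69 CPM in fed libraries (log2 1.98 ± 0.58, edgeR adjusted p = 0.0228). At 16 h it had 59.6, 9.71, 5.49 and 2.38 CPM in fasted and 1.57, 1.22, 1.78 and 1.72 CPM in fed libraries (log2 3.70 ± 0.61, edgeR adjusted p = 0.000235). The first of these fasted libraries sets the size of the difference at 16 h: without it the log2 fold change was 1.90, still called (edgeR adjusted p = 0.00132). At 24 h the values were 8.84, 9.15, 14.2 and 8.71 CPM in fasted and 2.59, 1.998, 1.60 and 1.74 CPM in fed libraries (log2 2.35 ± 0.58, edgeR adjusted p = 0.00708). No fasted library overlapped a fed one at these 3 times.

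Apoa1, Apoa2, Apoa5, Apob and Apoc1 were the other genes that rose at 8 h. Apoa5 had 99.7, 115, 230.2 and 173 CPM in fasted and 54.9, 44.2, 46.0 and 72.2 CPM in fed libraries (log2 1.52 ± 0.35, edgeR adjusted p = 0.00511). Apoa1 differed by 1.07 ± 0.26, Apoa2 by 0.67 ± 0.20, Apob by 0.67 ± 0.16 and Apoc1 by 0.51 ± 0.17 (edgeR adjusted p = 0.0084, 0.0239, 0.00694 and 0.0487). Fasted replicate 3 was the highest of its group in 8 of the 9 genes, all but Apob, and without it 2 of the 9, Apoa5 and Apob, were called at 8 h. Without fed replicate 1 or 2 of that time, 3 were called. The Apoc1 call was lost whichever of the 8 libraries was left out, and the Apoa2 and Apoa4 calls were lost in 4 of 8 such fits each. Apob stayed higher, with 1546, 955, 1123 and 1382 CPM in fasted and 709, 897, 725 and 772 CPM in fed libraries at 16 h (log2 0.72 ± 0.16, edgeR adjusted p = 0.00391) and a log2 fold change of 0.50 ± 0.16 at 24 h. Leaving out 1 library at a time, the 24 h call of Apob was lost in 6 of 8 fits, as was the 16 h call of Apoa2 (0.62 ± 0.20). With the summed hepatocyte markers as a covariate, 4 genes were called at 8 h: Apoa1 (1.10), Apoa4 (2.32), Apoa5 (1.61) and Apoe (1.03), while Apoa2, Apob and Apoc1 were not. At 8 h this covariate did not overlap between fasted and fed libraries, so the adjusted values there are extrapolated. Apoa4 kept its call with that covariate at 16 h (3.81) and 24 h (2.55).

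Apoe, which macrophages also make, was not called at any time in the fit of the 32 macrophage libraries without a covariate. At 8 h all fasted libraries (253, 260.0, 295 and 290.1 CPM) were above all fed ones (199, 175, 175 and 176 CPM), with a log2 fold change of 0.61 ± 0.24 (edgeR adjusted p = 0.101). With the hepatocyte-marker covariate, which did not overlap between the feeding states at 8 h, it was 1.03 and called. It was also called with the 8 libraries of that time only (0.59). At 3 h 1 fasted library, replicate 3, stood apart at 51.9 CPM beside 207.5 to 239 CPM in the other 3, and it was also the lowest of its group in Apoa1, Apoa5, Apoc1, Apoc3 and Apoc4-apoc2. Without that library 1 of the 9 genes, Apoa5, was called at 3 h (1.02). The summed hepatocyte markers at 3 h ranged from 12430 to 26910 CPM in fasted and from 7048 to 11220 CPM in fed libraries. No fasting effect on the 9 genes differed between times in macrophage nuclei by edgeR (background 4.65%), with 3 genes at an unadjusted p under 0.05. Fed libraries differed between times for none of the 9 (12.8%), with 1 gene at an unadjusted p under 0.05, and fasted libraries for Apoa4 and Apoc3 (38.1%).

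All 9 genes were lower in macrophage nuclei than in whole liver of the same line, 32 libraries against 8 pools, against 76.8% of all genes called and 40.7% lower, with a median log2 difference of -1.05. The smallest differences were those of Apoe, -0.71 ± 0.12, and Apoc1, -0.72 ± 0.09, and the largest that of Apoa2, -1.23 ± 0.10. Levels in macrophage nuclei were 209.5 ± 48.0 CPM for Apoe, 976 ± 234 CPM for Apob and 84.3 ± 33.8 CPM for Apoa1, against 339 ± 34.9, 2070 ± 207 and 176 ± 69.6 CPM in the pools (SD). The median of the 22 hepatocyte markers in the same comparison was -1.24, and their part in the macrophage levels was not tested. In hepatocyte nuclei, Apoa5 (0.42 ± 0.13), Apob (0.26 ± 0.07) and Apoc3 (0.26 ± 0.10) were higher than in whole liver and Apoe was lower (-0.33 ± 0.12), 4 of 9 genes against 50.3%. The Apoc3 call was lost with another scaling, with no filter on low counts and with DESeq2.

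**Figure D4:**
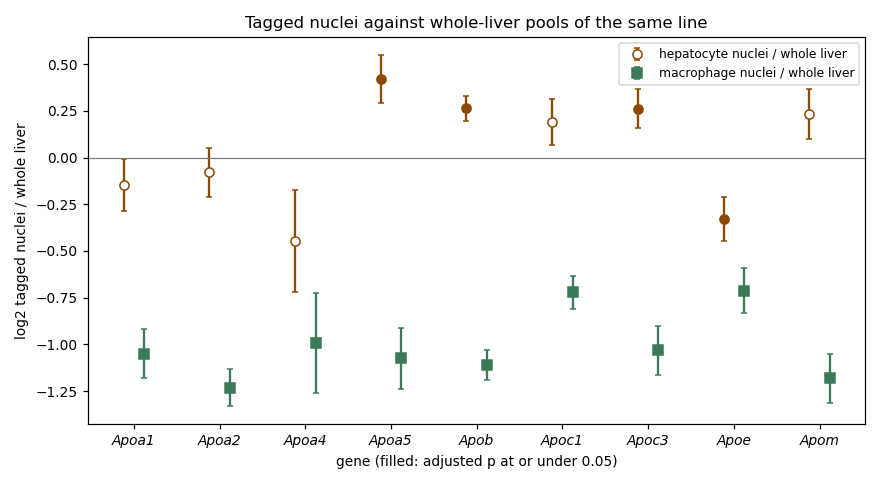
Log2 difference between tagged nuclei and whole-liver pools of the same line for the 9 genes, with its SE, in hepatocyte nuclei (brown circles) and macrophage nuclei (green squares), filled where called. All 9 macrophage values lie below 0, and Apoe is below 0 in both cell types.

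Set against whole liver of their own line, hepatocyte nuclei were higher than macrophage nuclei in 7 of 9 genes (72.3% of all genes called, 36.8% higher). The log2 differences of these 7 ran from 0.89 ± 0.16 for Apoc1 to 1.46 ± 0.24 for Apoa5. Apoe (0.35 ± 0.20, edgeR adjusted p = 0.112) and Apoa4 (0.51 ± 0.40, 0.246) were not called.

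The fasting effect differed between the cell types for Apom at 8 h, -1.70 ± 0.36 for hepatocyte minus macrophage nuclei (edgeR adjusted p = 0.00169), and for Apoa2 at 24 h, -1.04 ± 0.31 (edgeR adjusted p = 0.0459). The Apoa2 call was lost with no filter on low counts (edgeR adjusted p = 0.056). In macrophage nuclei Apom at 8 h had 3.23, 3.00, 3.40 and 2.93 CPM in fasted and 2.23, 1.73, 3.25 and 2.31 CPM in fed libraries, groups that overlap. These were 0, 1, 0 and 1 of 9 genes at 3, 8, 16 and 24 h, against 10.6%, 7.62%, 0.535% and 4.05% of all genes. At 3 and 16 h, where edgeR called none, 2 genes at each time had an unadjusted p under 0.05. Apoa4 differed between the cell types by 0.05 ± 0.79, 0.78 ± 0.77, -0.85 ± 0.77 and -0.61 ± 0.76, which does not show that the effects are alike. Hepatocyte markers differed as well at 8 h: 0 of 22 were called higher and 5 lower (median -0.50), beside a median of -0.73 for the 9 genes. Their part in these differences was not tested. Cell type and mouse line go together in the tagged libraries and cannot be told apart.

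Counts for the genes that act with the apolipoproteins in hepatocyte nuclei are read against the shares of all genes called, 19.5% higher and 20.4% lower at 3 h, 18.0% and 20.7% at 8 h, 9.55% and 8.55% at 16 h, and 11.6% and 12.4% at 24 h. Of 16 genes of lipoprotein assembly and secretion, 4 rose and 5 fell at 3 h, 5 and 2 at 8 h, 4 and 0 at 16 h, and 1 and 4 at 24 h. At 3 h Mia3, which helps load bulky cargo for export, rose by 1.26 ± 0.18, and P4hb, the smaller subunit of the lipid transfer complex, and Sort1, a sorting receptor, differed by -1.18 ± 0.25 and -1.83 ± 0.39. Of 13 receptors and uptake factors, 2 rose at each time, and 5, 6, 4 and 4 fell at 3, 8, 16 and 24 h. At 8 h Vldlr, a receptor for triglyceride-rich particles, had 3.77 ± 1.12 CPM in fasted and 18.3 ± 1.86 CPM in fed libraries (log2 -2.20 ± 0.26, edgeR adjusted p = 2.06e-07). Of 10 plasma lipases, transfer proteins and their inhibitors, 5 rose and 3 fell at 3 h, 4 and 2 at 8 h, 1 and 1 at 16 h, and 2 and 2 at 24 h. Angptl4, an inhibitor of lipoprotein lipase, had 206 ± 42.4 CPM in fasted and 22.0 ± 5.98 CPM in fed libraries at 3 h (log2 3.28 ± 0.37, edgeR adjusted p = 1.22e-07).

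Of 8 sterol and lipid efflux genes, 4 rose and 1 fell at 3 h, 4 and 0 at 8 h, 2 and 2 at 16 h, and 1 and 3 at 24 h. At 3 h Abcg8 (2.83 ± 0.20) and Abcg5 (2.07 ± 0.20), the paired transporters of sterols into bile, were higher. Of 27 transcriptional regulators, 11 rose and 7 fell at 3 h, 6 and 8 at 8 h, 2 and 2 at 16 h, and 4 and 8 at 24 h. At 3 h Ppargc1a, a coactivator of the fasting response, rose by 2.41 ± 0.55, and Srebf1, which drives lipid synthesis, and Onecut1, a hepatocyte factor, differed by -2.40 ± 0.29 and -2.97 ± 0.64 (edgeR adjusted p = 3.34e-07 and 0.000525). Of 9 measured genes that share the apolipoprotein name without being among the 10, 1 rose and 3 fell at 3 h, and 0 rose and 4, 2 and 3 fell at 8, 16 and 24 h. At 3 h Apoh rose by 0.82 ± 0.17 and Apol7a differed by -2.18 ± 0.40. The medians of these lists at 3 h lay between -0.36 (other apolipoprotein names) and 0.41 (efflux), against -0.03 over all genes, and no count is taken to set a list apart.

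Across the 32 libraries of hepatocyte nuclei, the genes most like each apolipoprotein gene were found by Pearson's r of log2 CPM, over 11246 genes. The libraries share groups, depth and preparation, so these values are descriptions. Apoa5 was most like Pck1 (r = 0.887), the gluconeogenic enzyme, then Zpr1 (0.867) and Lcat (0.852), the enzyme that esterifies cholesterol on HDL. Apoa4 was most like Dlgap2 (0.863), Lepr (0.822), the leptin receptor, and Ech1 (0.821), an enzyme of fatty acid oxidation. Apoa1 was most like Ip6k2 (0.883) and Apom like Cldn3 (0.832). Apob had the lowest leading value, 0.682 with Ranbp10. Between the 9 genes themselves the highest values were 0.775 for Apoc1 and Apoe, 0.758 for Apoa2 and Apoe, and 0.675 for Apoa1 and Apoa5.

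Neighbours of the chromosome 9 cluster rose with its early members. Zpr1, which starts 1144 bp after the end of Apoa5 on the same strand, rose by 2.95 at 3 h and 1.81 at 8 h on the log2 scale (edgeR adjusted p = 5.93e-09 and 4.14e-06), and differed by -0.29 at 16 h, not called. Bud13, 11092 bp from Apoa5, rose by 2.77 at 3 h and 2.04 at 8 h, and Sik3, a kinase gene 4435 bp upstream of Apoa1, by 0.89 and 0.40. At 24 h Zpr1 (0.99), Bud13 (2.15) and Sik3 (0.39) were higher again, while Apoa1 and Apoa5 were not called. Apoc3, which lies between Apoa1 and Apoa4 on the other strand, differed by 0.32 ± 0.20 at 3 h, not called. Near Apoa2, Nr1i3, a nuclear receptor gene 2718 bp away, rose by 0.69 at 3 h and 0.91 at 16 h. Apoe and Apoc1 fell at 24 h while Tomm40, 2124 bp from Apoe, differed by -0.09, not called. Near Apom, Abhd16a, 26009 bp away, differed by -0.45 at 8 h (edgeR adjusted p = 0.00139), the time when Apom fell. The other neighbours of Apom that were tested were not called at 8 h. Apob has no neighbour within 50 kb.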

How the data were processed

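Nuclear RNA was sequenced from 80 libraries as paired-end reads of 50 bp, stranded and without poly(A) selection, per the labels' protocols. The deposited table holds raw read counts per gene on mm10. STAR 2.4.2a and DESeq2 1.24.0 are named in the submitters' processing notes. Neither the counting tool nor its use of strand is stated in the labels or headers. The authors' deposited comparison tables give log2 fold changes and adjusted p-values, used for the sentences that name them.

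Counts were tested in edgeR 4.0.16 (R 4.3.3, limma 3.58.1) by the robust quasi-likelihood method. TMM scaling and filterByExpr (count minimum 10, total minimum 15) were used, with Benjamini-Hochberg adjustment over all genes tested and a threshold of 0.05. The 32 libraries of a cell type were fitted together as 8 groups. Comparisons with pools had condition as a term, and the difference of fasting effects used all tagged libraries. CPM values are TMM-scaled over all 80 libraries, and per kb they are divided by the listed gene length. Correlations used log2 CPM with a pseudocount of 0.1 over genes with a mean CPM of at least 1. The lack of a call does not show the lack of a change.

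The genes named are the 10 by rule, up to 3 called genes of each related list with the largest changes at the time with most calls, and for likeness the 3 genes with the highest r, of which some are printed. Genes that neighbour the 10 were named after their values were seen. The members and lists were chosen with earlier results of these data known. Alternatives were RLE scaling, no filter, DESeq2 1.42.0, fits of 1 time only, a replicate block, marker covariates and leaving out each library. Time without food and time of day go together in fasted libraries and cannot be told apart. Some of the related-list genes that the rule selects are not reported here.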

Additional observations from a re-analysis of the deposited data

Results flagged for a closer look

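Of 144 groups of 4 tagged libraries (9 genes in 16 groups), 14 had a highest or lowest library whose gap to the nearest, divided by the group's range, exceeded Dixon's critical value at the 95% level. Chance flags about 1 in 20 groups where values are independent and normally distributed. CPM was used here without logs and the 9 genes share libraries, so no excess is read from this count. In hepatocyte nuclei, Apoa2 reached 121.1 CPM in 16 h fed replicate 4, and Apom reached 8.14 CPM in 3 h fed replicate 1. Apoa5 reached 301.4 CPM in 16 h fasted replicate 2 and 477 CPM in 24 h fasted replicate 4. In macrophage nuclei, Apoa4 reached 59.6 CPM in 16 h fasted replicate 1, 14.2 CPM in 24 h fasted replicate 3 and 3.13 CPM in 3 h fed replicate 4. Apoa2 reached 89.7 CPM in 3 h fasted replicate 1 there, and Apoa5 reached 100.5 CPM in 16 h fed replicate 3. Apoc1 reached 111 CPM in 3 h fed replicate 3 and 117 CPM in 16 h fed replicate 3. Apoe was lowest at 51.9 CPM in 3 h fasted replicate 3 and highest at 199 CPM in 8 h fed replicate 1. Apom reached 2.68 CPM in 24 h fed replicate 1.

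The fasting effect itself differed between hepatocyte and macrophage nuclei in 2 results. For Apom at 8 h the difference was -1.70 on the log2 scale, and for Apoa2 at 24 h it was -1.04, a call that was lost with no filter on low counts. Cell type and mouse line go together in these libraries and cannot be told apart.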

How the results depend on the processing

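Several counts of called apolipoprotein genes moved by over 1.5 times. With the 8 libraries of a time only, they were 5 in hepatocyte nuclei at 3 h and 1 at 16 h. In macrophage nuclei at 3 h, 2 were called by DESeq2 and 2 with the run of library numbers as a replicate block, against 0. The labels do not say that these runs pair samples, and the block left the counts in hepatocyte nuclei at 3, 3, 2 and 4. With summed hepatocyte markers as a covariate, 1 was called in macrophage nuclei at 24 h. The difference of fasting effects had 2 calls at 8 h and 2 at 24 h by DESeq2, and 0 at 24 h with no filter on low counts. Leaving out 1 library at a time, the counts in hepatocyte nuclei ranged from 2 to 3 at 3 h, 2 to 3 at 8 h, 1 to 4 at 16 h and 1 to 4 at 24 h. In macrophage nuclei they ranged from 0 to 1, 2 to 5, 2 to 4 and 1 to 2. Over all genes, 2343 were called in hepatocyte nuclei at 16 h, against 885 with the 8 libraries of that time. In macrophage nuclei the counts were 1716 at 3 h, 1781 at 8 h and 1901 at 16 h. They were 247 at 3 h and 989 at 16 h with 8 libraries, and 596 at 3 h and 1064 at 8 h with the hepatocyte-marker covariate. Leaving out 1 library, they ranged from 702 (fasted replicate 3) to 2720 (fasted replicate 2) at 3 h, and were lowest at 8 h without fasted replicate 3 (702) and at 16 h without fasted replicate 1 (922). The difference of effects at 16 h had 75 calls, 48 with no filter and 133 by DESeq2. Across single genes and settings, 1102 values kept direction and side of the threshold, 65 lost their call, 23 gained one, and 34 uncalled values changed sign. The causes were not tested. Low counts limit Apom and Apoa4.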
